A study of Caenorhabditis elegans with 2 samples.

Results

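The 6 cyclic nucleotide phosphodiesterase genes of C. elegans, pde-1, pde-2, pde-3, pde-4, pde-5 and pde-6, were selected by gene name from the Ensembl annotation of the WBcel235 genome, and make up 6 of its 19973 protein-coding genes on the nuclear chromosomes. Each gene was examined from 1 kb upstream to 1 kb downstream for binding of ZFH-2, a homeodomain transcription factor that also has zinc fingers. The family was chosen because the promoter of pde-6 held a strong summit in these same lists, so every count and rank below is a description and none was tested.

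Chromatin immunoprecipitation with an antibody to GFP was sequenced from whole young adults aged 64.5 h, in 2 biological replicates that form a single group. The worms were of strain RW12167, in which CRISPR insertion had put GFP on the endogenous zfh-2 gene (allele st12167, which also carries unc-119(+) between loxP sites) in an unc-119(tm4063) III background, and both replicates had been synchronised by starving L1 larvae hatched from bleached adults. No untagged or input library was analysed here, and the lists hold no read counts, so the sequencing depth behind a peak is unknown. In whole animals, strong binding in a few cells cannot be told apart from weak binding in many.

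Cyclic nucleotide phosphodiesterases hydrolyse cAMP and cGMP, and so end the signals that adenylyl and guanylyl cyclases start. Each of the worm genes is related to a different mammalian phosphodiesterase family. PDE-4 and PDE-6 belong to families that act on cAMP, and PDE-4 is known in worms for opposing the cAMP signal that drives locomotion. PDE-1, PDE-2 and PDE-5 are known for limiting cGMP in sensory neurons, and PDE-3 is related to a family that hydrolyses both nucleotides.

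The authors' conservative list, built from both replicates with a threshold on the irreproducible discovery rate (IDR, the expected share of peaks that do not recur), held 7085 nuclear summits. Their signal, the authors' own measure of peak strength, had a median of 119 and a highest value of 783. With its scaling not given in the sources used here, values were compared only within a list, by rank. The replicates' own thresholded lists held 4281 summits in replicate 1 and 4696 in replicate 2, and their longer ranked lists 33033 and 32103.

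In the conservative list, 17 summits fell at 5 of the 6 genes. The pde-6 window held 6 summits, the pde-3 window 5, the pde-4 window 4, the pde-2 and pde-1 windows 1 each, and the pde-5 window none. Over all protein-coding genes 22.9% had at least 1 such summit, and among the 4170 genes whose window was at least as long as that of pde-5, the shortest at 6191 bp, the share was 41.4%. Because the choice of the family used this list, nothing is read from the member count against these shares. The 6 windows carried 0.173 summits per kb over 98455 bp, and the nuclear genome 0.0707 per kb.

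The density was uneven among the members. The pde-6 window held 0.502 summits per kb, against 0.154 per kb at pde-4, 0.14 at pde-3, 0.113 at pde-2 and 0.102 at pde-1. At least 6 summits were found at 102 protein-coding genes (0.511%), and 75 of the 4170 genes with a window of at least 6191 bp matched or exceeded the density of pde-6. Leaving pde-6 aside, the counts followed gene length, with 5 summits at pde-3 (33649 bp), 4 at pde-4 (23997 bp), 1 each at pde-1 (7830 bp) and pde-2 (6829 bp) and none at pde-5 (4191 bp). The gene the family was chosen for, pde-6, had 6 summits at a length of 9959 bp.

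**Figure D1:**
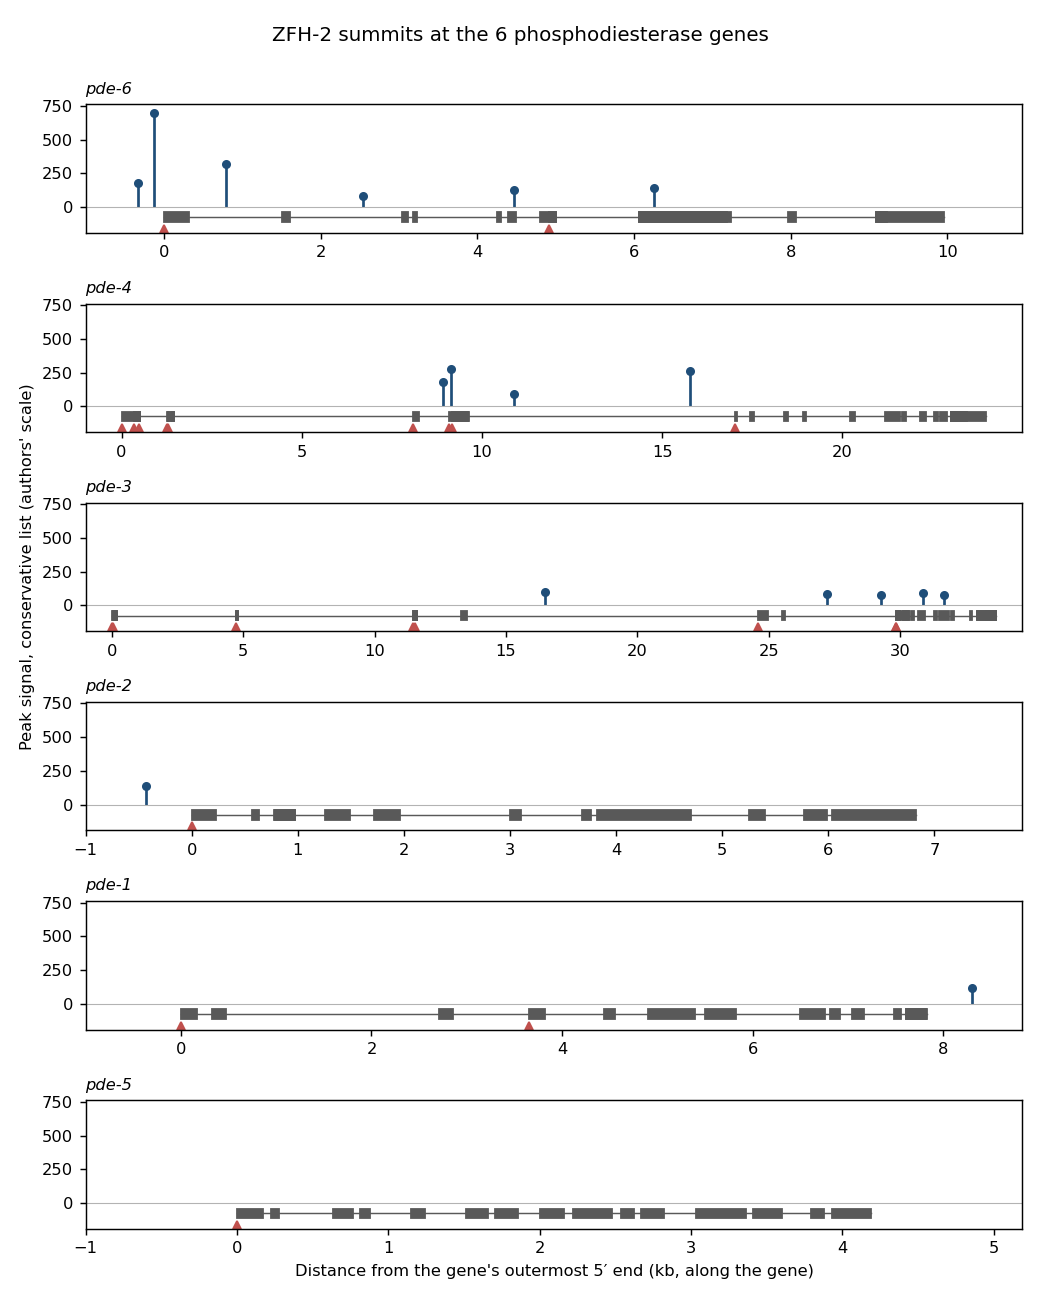
Each panel shows 1 phosphodiesterase gene drawn along its own direction, with distance from its outermost 5′ end in kb on the horizontal axis and the authors' peak signal in the conservative list on the vertical axis; stems mark summits, boxes exons and triangles annotated 5′ ends. The tallest stem, at 693, stands 120 bp upstream of pde-6, 2 of the 4 pde-4 stems stand at internal 5′ ends, the 5 pde-3 stems are all at or below 102, and pde-5 has none.

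At pde-6 (WBGene00022389, chrI:872755-882713, minus strand), a gene of the cAMP-specific group, the strongest summit lay at position 882833, 120 bp upstream of the 5′ end. Its signal was 693, rank 10 of 7085. The summit also fell in the promoter window, from 1000 bp upstream to 200 bp downstream of a 5′ end, of the divergent gene Y95B8A.6, so it is assigned to both genes alike. In replicate 1 the summit was at the same base with signal 358, rank 17 of 4281, and in replicate 2 it was 19 bp away with signal 340, rank 7 of 4696. This was the value by which the family was chosen.

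The same 871 bp peak held a second summit at 883049, 336 bp upstream of pde-6 and within Y95B8A.6, with signal 179 and rank 1570. Replicate 2 listed it with signal 67 at rank 2664, whereas replicate 1 placed no separate summit there in either of its lists. Over the whole conservative list, 747 pairs of neighbouring summits were under 600 bp apart, and in 94.9% of them the weaker summit had the higher coordinate, as here.

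The other 4 summits lay inside pde-6. An intronic summit 799 bp into the gene (position 881914) had signal 319 and rank 303, with signal 146 (rank 598) in replicate 1 and 177 (rank 157) in replicate 2. A summit in a coding exon 4472 bp into the gene (878241), which is 444 bp upstream of the 5′ end of the short transcript Y95B8A.10c.1, had signal 123 and rank 3369. Another coding summit 6256 bp into the gene (876457) had signal 142 and rank 2558. For the summit at 878241, replicate 1 had signal 64.7 at 55 bp away, in an intron, and replicate 2 had 58.2 at 3 bp away. For the one at 876457, replicate 1 had signal 84.6 at 142 bp away and replicate 2 had 61.1 at 24 bp away, and these peaks of the replicates overlapped by less than 50% of the shorter one. Replicate 1 had a nearer summit, 58 bp away with signal 75.6, in its ranked list only. The weakest, in an intron 2546 bp into the gene (880167), had signal 82.6 at rank 6000, and was below the threshold in replicate 1 (signal 39.1 in the ranked list). In replicate 2 the nearest summit, 61 bp away with signal 41.8, was likewise in the ranked list only. The thresholded list of replicate 2 had another summit 138 bp away, with signal 46.4 at rank 4291 of 4696. The other list the authors made from both replicates held 4 of the 6 pde-6 summits, without those at 880167 and 876457. All 6 windows of 101 bp around these summits had a GC content above the 35.4% of the nuclear genome, between 45.5% and 66.3%.

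At pde-4 (WBGene00020114, chrII:7627250-7651246, minus strand), the gene related to the mammalian PDE4 family, no summit lay near the outermost 5′ end. A peak of 800 bp (chrII:7641684-7642483) held the strongest summit, at 7642102, where the authors' signal was 275 and the rank 489. This summit lay 30 bp upstream of the 5′ end of transcript R153.1f.1, in the 5′ UTR of R153.1d.1. Replicate 1 had signal 141 (rank 646) and replicate 2 signal 135 (rank 409) at this place. The second summit of the peak, at 7642317, lay 153 bp before the start of R153.1d.1, with signal 177 and rank 1632. It had signal 121 (rank 943) in replicate 1 and 73.9 (rank 2211) in replicate 2, and it too was the weaker of its pair and at the higher coordinate. Both summits were thus found in both replicates' own lists, at an internal pair of annotated 5′ ends.

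The other pde-4 summits were intronic. The one at 7635471 had signal 261 and rank 567, and lay 1240 bp upstream of the 5′ end of R153.1a.1, the transcript with the most downstream start, under the noncoding RNA gene R153.5 of the opposite strand. Replicate 1 placed it 1 bp away with signal 138 (rank 679) and replicate 2 placed it 2 bp away with signal 123 (rank 580). The one at 7640350 was weaker, with signal 92.3 and rank 5253, and missed both replicates' thresholds: its −log10 IDR was 1.25 in replicate 1 and 1.82 in replicate 2, where the lists began at about 2, an IDR of 0.01. The flank set at 1 kb left out 2 further summits beyond the 3′ end of pde-4, 1753 bp away (signal 14.6, rank 6971) and 1953 bp away (signal 108, rank 4176), whereas the farthest summits it took in were those of pde-1 and pde-2, 474 and 427 bp outside the gene.

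The bases around 3 of the pde-4 summits are shown, in the direction of the gene, because they hold the strongest intronic binding of the family outside pde-6 and a weak summit for contrast. They come from the RefSeq copy of the WBcel235 genome and span 50 bp on either side of the summit. The 5 words searched on both strands at every summit were the repeat GAGAGAGA, the pair of E-boxes written CAGCTG in one case and CACGTG in the other, the cAMP response element with the letters TGACGTCA, and the homeodomain core known as TAATTA. None of them occurs in these stretches, so no letter is in capitals.
pde-4 upstream of R153.1d.1, chrII:7642267-7642367, minus strand: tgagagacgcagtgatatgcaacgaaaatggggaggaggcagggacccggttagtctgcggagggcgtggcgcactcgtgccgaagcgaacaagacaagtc
pde-4 weak intronic summit, chrII:7640300-7640400, minus strand: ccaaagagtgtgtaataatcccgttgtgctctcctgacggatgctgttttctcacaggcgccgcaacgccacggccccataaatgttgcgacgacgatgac
pde-4 upstream of R153.1a.1, chrII:7635421-7635521, minus strand: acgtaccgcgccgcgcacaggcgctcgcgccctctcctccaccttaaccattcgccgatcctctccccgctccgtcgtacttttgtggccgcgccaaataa
Their GC content was 59.4%, 54.5% and 64.4% in this order, against 35.4% for the nuclear genome.

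At pde-3 (WBGene00008443, chrII:14919705-14953353, plus strand), the gene related to the mammalian PDE3 family, all 5 conservative summits were weak and lay at least 16495 bp from the outermost 5′ end. Their signals were between 77.9 and 102, all below the list's median, at ranks 4549 to 6372. Each of the 5 peaks was 470 bp wide with its summit at 235 bp from its start, the commonest width in the list (39.6% of peaks). The summits at 14936200, 14946907 and 14948968 were intronic, 16495, 27202 and 29263 bp into the gene, of which the last lay 569 bp before the start of transcript E01F3.1a.1, and those at 14950556 and 14951355 were in coding exons. Of these only the one at 14936200 passed the threshold in a single replicate's list, with signal 52.8 and rank 3819 in replicate 2, just inside it at a −log10 IDR of 2.13, and with 1.15 in replicate 1. The other 4 had a −log10 IDR between 0.494 and 1.45 in replicate 1 and between 0.336 and 1.32 in replicate 2.

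Replicate 2 alone listed a summit near the outermost 5′ end of pde-3, at 14919783, 78 bp into the gene and in a coding exon. Its signal of 70.5 (rank 2419) was the highest for pde-3 in that replicate. Neither the ranked list of replicate 1 nor the conservative list had a peak overlapping it. The conservative list thus held 4 summits inside pde-3 that were in neither own list, and lacked the one that replicate 2 ranked highest there. The other pooled list held 3 of the 5 conservative pde-3 summits and 1 more, at 14950759, of signal 7.72.

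The 3 intronic pde-3 summits are shown with the E-box CACGTG, a palindrome bound by many basic helix-loop-helix factors, in capitals, since 2 of the family's 17 summits held this word and both were here. The sequences are from the RefSeq copy of WBcel235, 50 bp on either side of the summit.
pde-3 upstream intronic summit, chrII:14936150-14936250, plus strand: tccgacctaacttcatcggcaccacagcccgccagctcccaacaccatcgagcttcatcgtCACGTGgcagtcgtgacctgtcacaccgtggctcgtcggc
pde-3 middle intronic summit, chrII:14946857-14946957, plus strand: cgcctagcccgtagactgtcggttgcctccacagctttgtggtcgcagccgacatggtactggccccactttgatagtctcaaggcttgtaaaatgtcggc
pde-3 downstream intronic summit, chrII:14948918-14949018, plus strand: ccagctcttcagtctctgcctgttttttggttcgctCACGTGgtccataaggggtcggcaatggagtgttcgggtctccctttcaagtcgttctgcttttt
The upstream one held CACGTG and had 62.4% GC, the middle one held none of the words and had 56.4% GC, and the downstream one held CACGTG and had 51.5% GC.

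At pde-2 (WBGene00011146, chrIII:8975069-8981897, minus strand), related to the mammalian PDE2 family and known in sensory cGMP signalling, the only conservative summit was in the promoter window, at 8982324, 427 bp upstream of the 5′ end in intergenic sequence. Its peak was narrow, 182 bp, with signal 135 and rank 2811. Replicate 1 placed its summit at the same base with signal 89.6, rank 1935 of 4281. Replicate 2 had signal 49.1 in its ranked list, 29 bp away, with a −log10 IDR of 1.98, just short of its threshold. The call at pde-2 therefore stood in 1 of the 2 replicates' own lists.

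The whole peak is shown because it was the one member summit with GAGAGAGA, the repeat bound by GAGA-type factors in flies, and the one with the least GC. It is read in the direction of the gene from the RefSeq copy of WBcel235, and capitals mark every match of GAGAGAGA or its reverse complement TCTCTCTC.
pde-2 promoter peak, chrIII:8982225-8982406, minus strand: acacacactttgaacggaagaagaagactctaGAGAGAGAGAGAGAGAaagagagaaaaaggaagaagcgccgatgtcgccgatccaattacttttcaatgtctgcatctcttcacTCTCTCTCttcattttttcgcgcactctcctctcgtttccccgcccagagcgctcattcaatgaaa
It holds 1 run of the repeat on this strand and 1 on the other, 24 bases in capitals in all. Its GC content was 46.2% over the 182 bp and 42.6% in the 101 bp around the summit.

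At pde-1 (WBGene00011433, chrI:13310887-13318716, minus strand), the gene related to the calcium- and calmodulin-dependent PDE1 family, the conservative summit was not at the gene itself. It lay 474 bp beyond the 3′ end, at 13310413, on the threonine transfer RNA gene T04D3.t4 inside T04D3.8, a protein-coding gene of the opposite strand. Its signal was 118, rank 3595. Neither replicate's thresholded list contained it, and in the ranked lists it had signal 77.4 (−log10 IDR 1.7) in replicate 1 and 41.3 (1.3) in replicate 2. Of its 66 overlapping 36-base stretches 71.2% occurred once in the genome and the most repeated occurred 9 times, whereas all such stretches at the other 16 summits of the family were unique. The part of repeated sequence in its signal was not tested.

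The authors' other pooled list had no summit there and had instead one 522 bp into pde-1, at 13318194, with signal 74.2, rank 6566 of 7084. The ranked lists had summits near that place with signal 34.3 in replicate 1 and 39.7 in replicate 2. Which summit represented pde-1 thus depended on the pooled list used.

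At pde-5 (WBGene00016328, chrI:5196073-5200263, plus strand), the shortest of the genes and one of those known in sensory neurons, no list held a summit. This included the ranked lists, which reach far below the thresholds and held 70 summits in replicate 1 and 60 in replicate 2 over the 6 windows. The nearest conservative summit was 19661 bp from the gene. Of the 4170 genes with windows of at least 6191 bp, 31.1% likewise had none in either ranked list, so the absence at pde-5 was shared by many genes of its size or larger.

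By replicate, 3 of the 6 genes had a summit in replicate 1's own list (pde-2, pde-4 and pde-6), against 16.6% of all genes, and 3 had one in replicate 2's (pde-3, pde-4 and pde-6), against 17.5%. Each of the 6 windows was longer than the median of 4027 bp over all genes. Shares among genes of like window length were not computed for the replicates' own thresholded lists. In the promoter window, 2 of the 6 genes had a summit in the conservative list (pde-6 and pde-2), against 8.82% of all genes. Replicate 1 also gave 2 (pde-2 and pde-6), against 6.47% of all genes, and replicate 2 gave 2 (pde-3 and pde-6), against 6.23%. With the windows of all annotated transcripts in place of the outermost 5′ end, 4 genes had one (pde-2, pde-3, pde-4 and pde-6), against 10.6% of all genes. The choice of the family used these lists too, and only pde-6 had a promoter summit in all of them.

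Of the 8 summits that replicate 1 listed in the windows, 7 had an overlapping peak in replicate 2's thresholded list, where the share over all of replicate 1's peaks was 76.4%. Of the 11 that replicate 2 listed, 8 had one in replicate 1's, where the share over all of its peaks was 70.7%. The exceptions were the pde-2 promoter summit for replicate 1, and for replicate 2 both pde-3 summits and the intronic pde-6 summit at 880029.

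Of the 17 conservative summits, 8 had an overlapping peak in the thresholded lists of both replicates, 1 in replicate 1's only, 2 in replicate 2's only and 6 in neither. Over the whole list 48.3% overlapped both and 27.9% neither. The summits in neither were 4 of the 5 at pde-3, the weak intronic one at pde-4 and the one on the transfer RNA gene. All 7 peaks of the commonest width, 470 bp, overlapped a peak in at most 1 own list, and 8 of the other 10 did so in both. When a summit within 150 bp was required as well, 7 of the 17 were in both own lists, 4 in 1 and 6 in neither. The summit that changed was the pde-6 one at 883049, where replicate 1 had no separate summit.

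**Figure D2:**
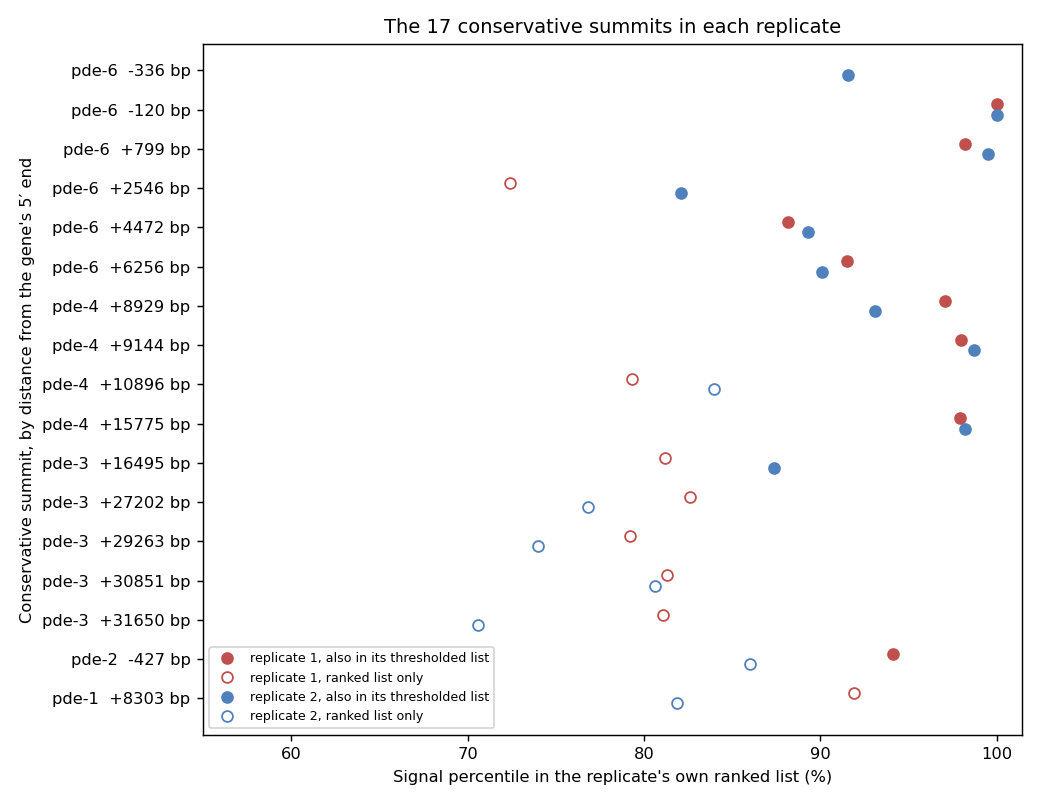
Each row is 1 of the 17 conservative summits, labelled by gene and distance from its 5′ end. The horizontal axis gives the signal percentile of the nearest summit in each replicate's ranked list. Points are filled where that replicate's thresholded list had a summit within 150 bp of the conservative one. For pde-6 at +6256 bp in replicate 1 and at +2546 bp in replicate 2, that summit was not the plotted one, which was below the threshold. The pde-6 summit at −120 bp sits at the top of both lists, the pde-3 rows hold the lowest points of replicate 2 (down to 70.6%), and the row at −336 bp has no point for replicate 1.

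The members' summits were GC-rich, like the list as a whole. The 101 bp around them had a median GC content of 59.4%, against a mean of 55.1 ± 7% (SD, n = 7085) over all summits, and 14 of the 17 were above 50%, against 80.5% of all summits. GC content was higher at the summit than 300 bp away on both sides for 10 of the 17, against 83.1% of all summits. The words were rare: GAGAGAGA was at 1 of the 17 and at 4.02% of all summits (95% Wilson interval 3.59 to 4.51), and CACGTG at 2 of the 17 and at 3.81% of all (3.39 to 4.28). The remaining words were at none of the 17: the E-box CAGCTG was at 6.2% of all summits, the cAMP response element at 0.762% and the homeodomain core at 0.692%.

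The members differed in the highest GC content of their windows, which were of unlike length, from 6191 bp at pde-5 to 35649 bp at pde-3. The highest value in any 101 bp of the window was 71.3% at pde-6, 69.3% at pde-4, 66.3% at pde-3, 63.4% at pde-1, 54.5% at pde-5 and 52.5% at pde-2, where the median over all protein-coding genes was 56.4%. The value at pde-6 was at the 99th percentile of all genes, and that of its promoter window, again 71.3%, at the 99.7th. A longer window has more places for a high value, whereas the promoter window had the same length at every gene. There the percentile was 98.4 at pde-3, 63.2 at pde-4, 57.3 at pde-1 and pde-2 and 44.5 at pde-5. For the gene windows of pde-4 and pde-1 it was 97.7 and 86.9. Among genes whose highest GC content was no more than that of pde-5, 1.35% had a conservative summit, and among those no higher than pde-2, 0.43%, both over genes of any window length. The pde-2 summit at −427 bp lay beside the highest GC content of its window, the 52.5% at −392 bp. The GC maximum of pde-3, 66.3% in its promoter window, was near the summit that replicate 2 alone listed. The part of base composition in the signal was not tested.

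**Figure D3:**
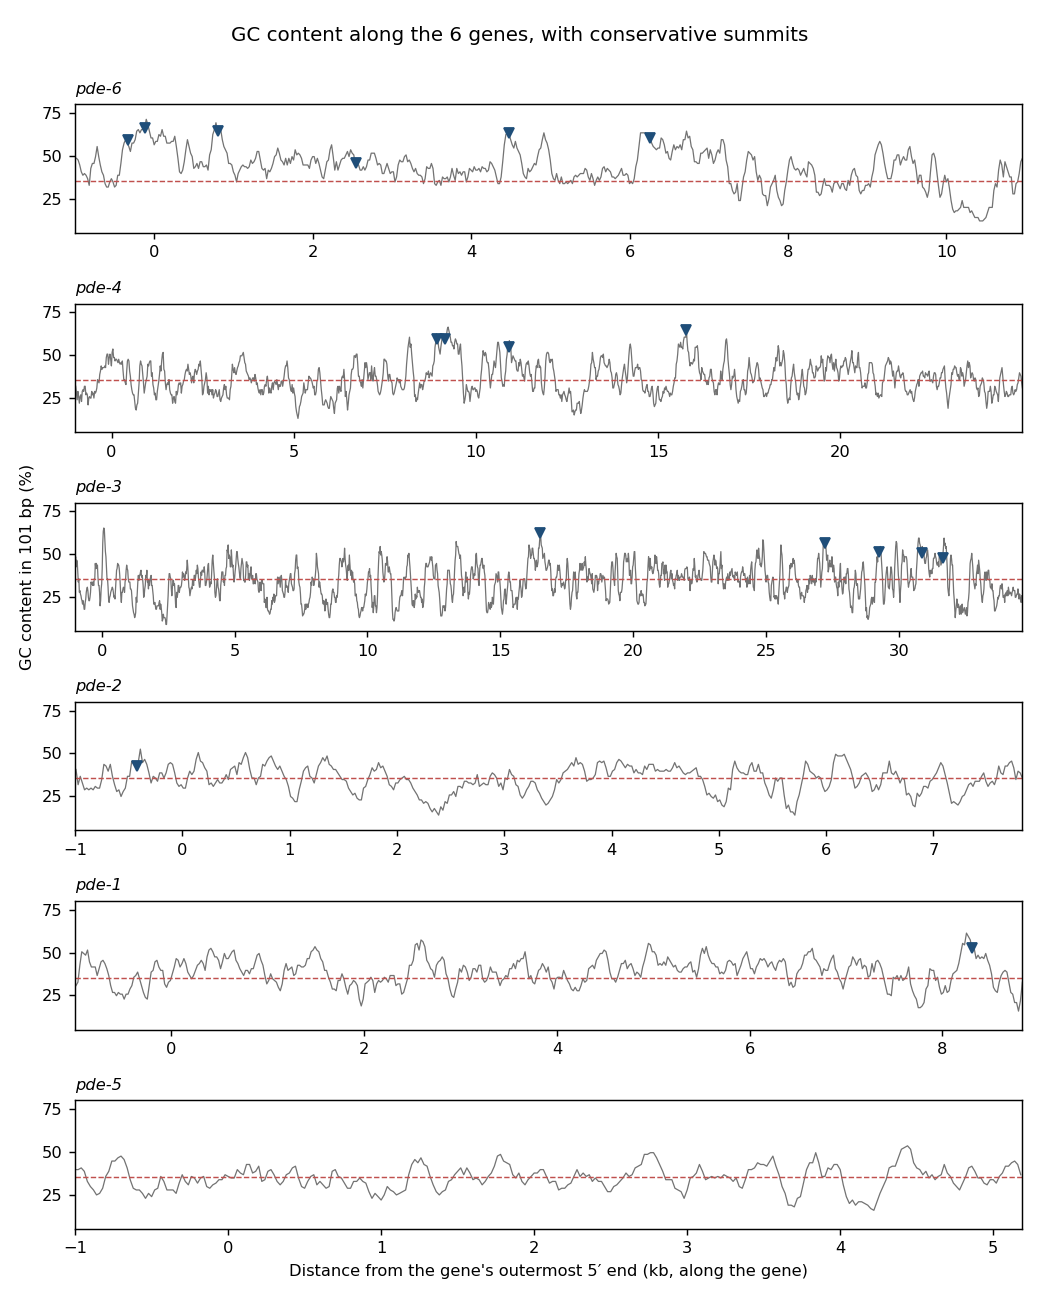
GC content in 101 bp is drawn in % on the vertical axis along each gene, by distance from its outermost 5′ end in kb, with triangles at the conservative summits and a dashed line at the genome's 35.4%. Several pde-6 and pde-4 summits stand on or beside local GC maxima, such as the 66.3% at −120 bp and the 64.4% at +15775 bp, the pde-2 summit, at 42.6%, stands beside that window's own maximum of 52.5%, and the pde-5 line stays at or below 54.5%.

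The other genes of cyclic nucleotide signalling, 53 in 5 lists, had a conservative summit in 14 cases (26.4%), against 22.9% of all genes, and a promoter summit in 4 cases (7.55%), against 8.82%. Most of their windows were at least 6191 bp long, where the median over all genes was 4027 bp. Among the 4170 genes with windows of at least 6191 bp, the share with a conservative summit was 41.4%, above that of the 53. The 53 genes held 46 summits, 0.0823 per kb. By list the density was 0.203 per kb at the kinases, 0.126 in the G protein and CREB list, 0.0749 at the adenylyl cyclases, 0.0377 at the guanylyl cyclases and 0.0227 at the channels. The 6 phosphodiesterase genes had 0.173 per kb, which includes the 0.502 of pde-6, the gene the family was chosen for. Each other member had between 0 (pde-5) and 0.154 (pde-4), a range that takes in the 0.126 of the G protein and CREB list. The family's place among the lists is therefore not read as a result, and the differences were not tested. On the cAMP side, the gene for the stimulatory G protein alpha subunit, gsa-1, had a promoter summit of signal 608 (rank 25), with 345 in replicate 1 (rank 21) and 264 in replicate 2 (rank 35). The adenylyl cyclase genes acy-1 and acy-3 had promoter summits of signal 230 (rank 813) and 168 (rank 1827), both found in each replicate's own list, and the other 2 adenylyl cyclase genes had none in their windows. Of the genes for cyclic nucleotide-dependent kinases, 3 of 4 had summits, against 22.9% of all genes and 41.4% of those with windows of at least 6191 bp. The kinase windows were longer still, from 9208 to 40461 bp, and no share was computed for genes of such lengths. The gene kin-1, the catalytic subunit of protein kinase A, had 12 in a window of 40461 bp. The cGMP-dependent kinase gene egl-4 had 6 in a window of 34526 bp, of which one of signal 204 was in its promoter window. The gene kin-2, the regulatory subunit of protein kinase A, had 3.

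On the cGMP side, 6 of the 33 guanylyl cyclase genes had a conservative summit (18.2%). The share was 22.9% over all genes and 41.4% over genes with windows of at least 6191 bp. Most of the guanylyl cyclase windows were at least that long. None of the 33 genes had a summit in the promoter window, against 8.82% of all genes. The 6 guanylyl cyclase genes with a summit were gcy-15, gcy-19, gcy-21, gcy-23, gcy-28 and gcy-35, and the highest signal among them was 265, at gcy-28. The kinase list above held genes of both sides. Its cGMP-dependent kinase gene, egl-4, had 6 conservative summits, 1 of them in its promoter window (signal 204). No difference between the cAMP and cGMP sides is therefore read from these lists, and none was tested. Of the 6 genes for cyclic nucleotide-gated channels, which open on cGMP in sensory neurons, cng-2 alone had a summit (signal 129, rank 3068). This share of 16.7% stood against 22.9% of all genes and 41.4% of genes with windows of at least 6191 bp. Most of the channel windows were at least that long. In the remaining list of 6 genes, crh-1, the worm CREB, had 6 summits with a highest signal of 199, beside gsa-1.

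**Figure D4:**
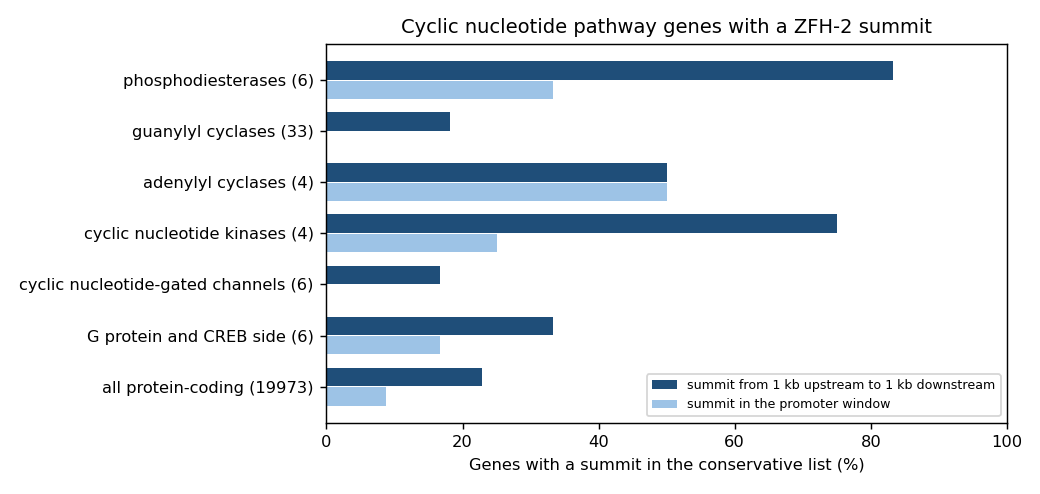
Bars give the percentage of genes in each list (number of genes in brackets) with a conservative summit from 1 kb upstream to 1 kb downstream (dark) or in the promoter window (light), with all 19973 protein-coding genes at the bottom. The phosphodiesterases, chosen from these lists, reach 83.3% and 33.3%, the kinases 75% and 25%, the adenylyl cyclases 50% in both, and the guanylyl cyclases 18.2% and 0%.

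In signal rank, the promoter summit of pde-6 was closest to those of Y95B8A.6, which shares it, and of hsp-3, swsn-7, myrf-1 and ntl-2. Likeness was measured as the largest of the 3 differences in signal percentile, over the conservative list and the 2 replicates' own lists, among the 956 genes with a promoter summit that recurred in both. For hsp-3, the gene of a BiP-type chaperone, the largest difference was 0.0701 percentage points, with signal 688 (rank 12), 362 in replicate 1 and 326 in replicate 2. For swsn-7, a gene of the SWI/SNF chromatin remodelling complex, it was 0.128 (signal 670), for myrf-1, a membrane-bound transcription factor gene, 0.17 (signal 664), and for ntl-2, of the CCR4-NOT deadenylase complex, 0.192 (signal 673). The likeness concerns rank alone.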

How the data were processed

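The 2 samples are biological replicates of 1 group, per the labels, so no groups were compared and no test was run. The authors deposited narrowPeak lists in assembly ce11. Per the text deposited beside the files, 2 thresholded lists came from both replicates, and a thresholded and a longer ranked list came from each replicate's own alignments. The deposited signal of a peak is the authors' own strength measure, of unstated scaling. The deposited score, at most 1000, follows the IDR and began at 830 in the thresholded lists. The deposited −log10 IDR in the ranked lists began at about 2 for the thresholded peaks. Aligner, peak caller and control: not given in the sources used here. Depth is unknown, as the lists hold no read counts, so no interval was set on a signal.

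Summits on the nuclear chromosomes (7085 of 7087 peaks in the conservative list) were placed on Ensembl release 115 genes of WBcel235, the assembly also called ce11; 0 peaks ended beyond a chromosome, and 99.8% of protein-coding transcripts had a coding sequence that began with ATG there. A summit was assigned to every gene within 1000 bp, and a match between lists meant at least 1 bp of shared peak. Where a single summit of another list is quoted, it lay within 150 bp. Named genes were the 6 members, up to 2 promoter-summit genes per pathway list, genes sharing a member summit, and the 5 genes most like pde-6; other pathway genes with a summit were named after their values were seen. The members, lists and words were chosen with earlier results of these data known. Tried as alternatives were each replicate alone, the second pooled list, only the stronger 50% by signal, other windows, peak overlap, merged summits, transcript 5′ ends and other matching rules. Counting was checked on simulated data (8 of 8 checks passed). The work used matplotlib 3.10.9, SciPy 1.17.1, pandas 2.3.3, NumPy 2.4.6 and Python 3.11.15.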

Additional observations from a re-analysis of the deposited data

How the results depend on the processing

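The member and summit counts, 5 and 17, became 3 and 9 in the stronger 50% of the conservative list, where pde-2, pde-4 and pde-6 remained, and pde-2 and pde-4 fell to percentiles 20.7 and 86.2 within that list. Within gene bodies alone 3 members had a summit (pde-3, pde-4 and pde-6) and pde-6 was at percentile 95.7. Leaving out a replicate gave 3 members each time and 8 to 11 summits; the signal percentile was then 84.9 to 91.3 for pde-4 and 99.6 to 99.9 for pde-6, 54.8 for pde-2 without replicate 2 and 48.5 for pde-3 without replicate 1, and the other members had no summit to rank. The other pooled list put pde-1 at percentile 7.33, against 49.3. Merged regions gave 45.6 for pde-1, 57.3 for pde-2 and 31.6 for pde-3. Counting the promoters of all transcripts gave 4 members in place of 2. Among the counts that stayed within 1.5 times, the 17 summits became 13 in gene bodies alone, 14 in the other pooled list, 15 with merged regions and 19 with a 2 kb flank, and the 14 pathway genes became 12 to 14. No alternative could rank pde-5, and gene bodies alone gave no percentile for pde-1 or pde-2, nor the stronger 50% for pde-1 or pde-3. No paired analysis was possible because there is 1 group. With 2 replicates, no read counts and no control library analysed here, weak summits such as those of pde-3 rest on the authors' threshold.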
